A study of Homo sapiens with 2 samples.

Results

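The genes described here are the numbered zinc finger genes of human chromosome 19, chosen as every gene whose symbol is ZNF followed only by digits and to which the deposited annotation assigns a CpG on that chromosome, through a promoter or a gene body. There were 237 such genes, holding 16993 of the 2773807 listed CpG positions. Of these positions, 15259 had 10 or more reads in both libraries and were kept. Genes with 5 or more kept CpGs were summarised, which gave a promoter level for 217 genes, an exonic level for 51 and both for 50, while 19 genes had neither. The genome-wide set processed in the same manner held promoters of 23526 genes and exonic CpGs of 12352 genes. The CpG minimum left out ZNF708, with 4 kept promoter CpGs, and kept ZNF333, ZNF729 and ZNF865, with 5 each.

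The study measured DNA methylation in SH-SY5Y, an established human neuroblastoma cell line used as a model of neuron-like cells. It holds 1 library of cells treated with Mdivi-1, a small molecule introduced as an inhibitor of mitochondrial fission, and 1 library of cells given the solvent DMSO. Both are the same line, and dose, exposure time and the number of cultures are not given in the sources used here. Methyl capture selects CpG-rich and regulatory DNA by hybridisation, after which bisulfite treatment converts unmethylated cytosine, so that the share of unconverted reads gives the methylation level of a CpG. Expression was not analysed here, so the identity of the line was not checked against marker genes.

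Most zinc finger genes of chromosome 19 encode proteins with a KRAB domain followed by an array of C2H2 zinc fingers. The fingers bind DNA, often in retroelements, and the KRAB domain recruits the co-repressor TRIM28, through which the histone methyltransferase SETDB1 and HP1 proteins assemble heterochromatin. The genes arose by repeated tandem duplication and lie in clusters, and methylation of their CpG-rich promoters has been described in many tumours. The finger array is usually encoded by a long last exon. The exonic CpGs measured here were not limited to that exon, and 82 of the 1837 in the measured sets lay in an annotated promoter.

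The promoters differ in sequence as well as in level. Shown are the 250 bases before the RefSeq start for 5 members: the most methylated promoter of the set and another near it (ZNF432, ZNF418), the promoter of largest gain (ZNF577), the imprinted ZNF331 at a start of intermediate level, and ZNF256 as one of the many promoters with little methylation. The sequences are from RefSeq on GRCh38.p14 and read 5′ to 3′ on the strand of the gene, and the capitals mark CpGs whose mean level in the 2 libraries was 50% or more. The ZNF432 stretch is chr19:52048839-52049088 and the ZNF418 stretch chr19:57935403-57935652, both on the minus strand. The ZNF577 stretch is chr19:51887952-51888201 on the minus strand, the ZNF331 stretch chr19:53554363-53554612 on the plus strand, and the ZNF256 stretch chr19:57947707-57947956 on the minus strand.
ZNF432: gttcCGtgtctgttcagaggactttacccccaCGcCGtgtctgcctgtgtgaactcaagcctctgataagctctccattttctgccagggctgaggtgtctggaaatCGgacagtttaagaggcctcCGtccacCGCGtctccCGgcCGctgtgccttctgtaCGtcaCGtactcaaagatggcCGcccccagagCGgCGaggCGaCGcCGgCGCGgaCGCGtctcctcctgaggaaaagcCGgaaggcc
ZNF418: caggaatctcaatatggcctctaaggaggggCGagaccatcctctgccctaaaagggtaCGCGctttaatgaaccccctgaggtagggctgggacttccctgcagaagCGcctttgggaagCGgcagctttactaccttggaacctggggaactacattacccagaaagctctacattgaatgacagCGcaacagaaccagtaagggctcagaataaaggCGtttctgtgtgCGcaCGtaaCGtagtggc
ZNF577: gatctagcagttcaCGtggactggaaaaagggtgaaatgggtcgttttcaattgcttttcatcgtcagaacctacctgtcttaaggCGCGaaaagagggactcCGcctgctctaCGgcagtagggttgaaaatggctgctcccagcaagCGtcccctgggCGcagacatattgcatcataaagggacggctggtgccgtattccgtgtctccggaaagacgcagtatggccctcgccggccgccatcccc
ZNF331: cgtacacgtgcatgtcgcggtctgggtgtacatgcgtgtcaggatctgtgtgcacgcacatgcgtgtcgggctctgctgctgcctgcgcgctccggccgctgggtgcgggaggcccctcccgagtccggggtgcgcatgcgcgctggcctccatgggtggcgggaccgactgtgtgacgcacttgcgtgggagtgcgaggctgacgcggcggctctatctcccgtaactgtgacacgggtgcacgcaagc
ZNF256: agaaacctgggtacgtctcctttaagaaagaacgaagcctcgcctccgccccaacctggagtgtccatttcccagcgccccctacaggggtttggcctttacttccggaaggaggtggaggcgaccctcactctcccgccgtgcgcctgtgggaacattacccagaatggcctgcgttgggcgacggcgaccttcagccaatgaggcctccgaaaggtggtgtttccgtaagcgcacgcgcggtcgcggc

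All 22 CpGs of the ZNF432 stretch were methylated, with a mean of 96.0% in the Mdivi-1 library and 96.5% in the DMSO library and no CpG below 91.4% in Mdivi-1 or 88.9% in DMSO. All 10 CpGs of the ZNF418 stretch lay at 91.3% or more in Mdivi-1 and 93.0% or more in DMSO. The 17 CpGs of the ZNF577 stretch averaged 53.3% in Mdivi-1 and 47.7% in DMSO, and 7 of them reached 50%. The ZNF331 stretch held 29 CpGs, none in capitals, with means of 37.7% in Mdivi-1 and 42.2% in DMSO. The 22 CpGs of the ZNF256 stretch averaged 0.856% in Mdivi-1 and 1.38% in DMSO. ZNF256 and ZNF432 thus hold the same number of CpGs in this stretch at opposite ends of the methylation range.

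Coverage of the kept CpGs of these genes averaged 49.7 reads in the Mdivi-1 library and 40.4 reads in the DMSO library, against 49.1 and 39.7 reads over the 2523690 kept CpGs of the whole table. The mean level of all kept CpGs was 43.1% in Mdivi-1 and 42.6% in DMSO. With 1 library per condition no test between conditions was possible, and a rule of size was used, namely a mean difference of at least 10 percentage points with at least 80% of the CpGs of a promoter or exon set on its side. Differences are Mdivi-1 minus DMSO, and ± gives the standard error from read counting, which treats the reads at each CpG as independent. Where a second, larger error is given, it is the error of 1 CpG at the mean level and mean coverage of the promoter. That is the case of all CpGs being read on the same molecules and agreeing on each. CpGs of unlike level or far apart do not meet it, so it overstates their counting error. Both cover counting error only, since reads without molecular identifiers are not independent molecules and cultures were not replicated.

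Most promoters of these genes carried little methylation in both libraries, and a small group was almost fully methylated. The median promoter level was 6.02% in Mdivi-1 and 5.69% in DMSO over the 217 genes. In both libraries 127 of them, or 58.5%, lay under 10%, and 27 lay at 50% or more, while over all genes 35.1% lay under 10% and 22.0% at 50% or more. The other 1186 measured promoters of chromosome 19 had medians of 11.1% in Mdivi-1 and 11.0% in DMSO, with 47.0% of them under 10%. The 219 measured promoters of numbered zinc finger genes on other chromosomes had medians of 13.0% in Mdivi-1 and 13.1% in DMSO, with 40.6% under 10% and 8.22% at 50% or more. These groups are set side by side as a description, and the differences between them were not tested.

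**Figure D1:**
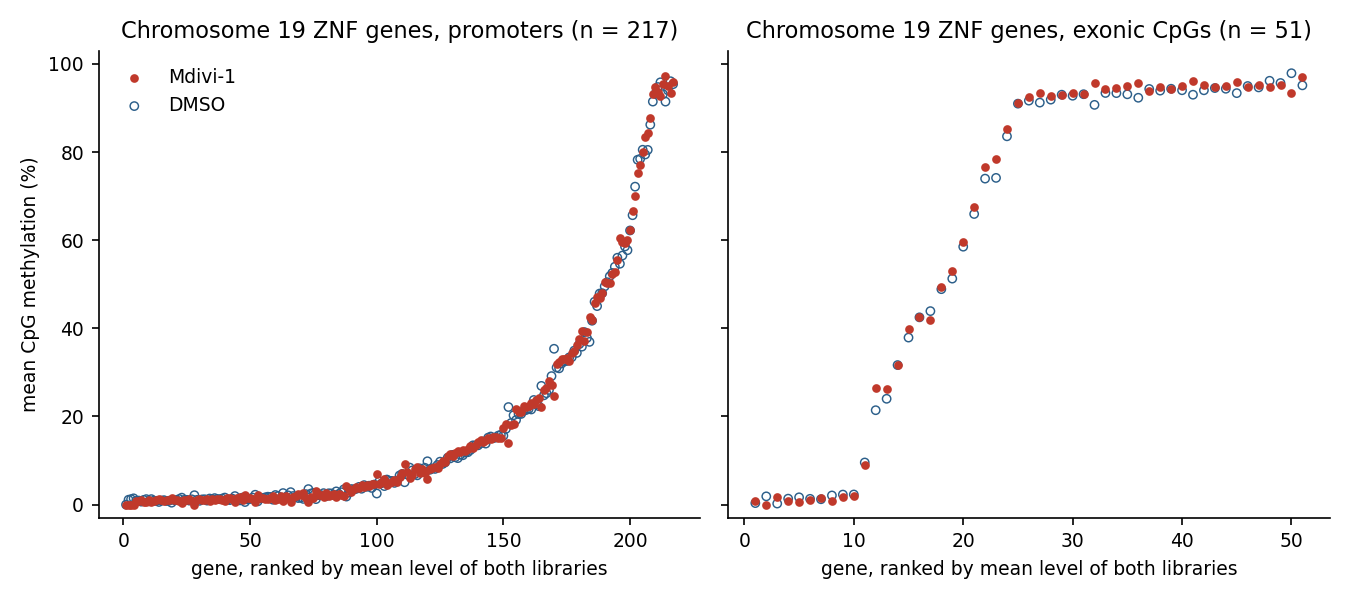
Mean CpG methylation (%) of each gene in the Mdivi-1 library (filled) and the DMSO library (open), with genes ranked by the mean of both libraries, for 217 promoters (left) and 51 sets of exonic CpGs (right). Promoters are mostly near 0, with 27 at 50% or more in both libraries, whereas 27 of the exon sets lie at 90% or more in both, and the points of the 2 libraries nearly coincide.

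The most methylated promoter was that of ZNF432, described as acting in DNA repair, with 96.0% in Mdivi-1 and 95.4% in DMSO over 56 CpGs. ZNF418 had 95.1% in Mdivi-1 and 94.0% in DMSO over 19 CpGs. ZNF558, a KRAB gene known to repress the mitochondrial quality-control gene SPATA18 in human neural progenitors, had 95.4% in Mdivi-1 and 93.2% in DMSO over 29 CpGs. The 5 highest promoters also included ZNF865, with 93.3% in Mdivi-1 and 96.1% in DMSO, and ZNF90, both resting on few CpGs (5 and 6). In all, 9 promoters reached 90% in both libraries. Among them were ZNF154, with 93.5% in Mdivi-1 and 94.8% in DMSO, and ZNF671, with 94.8% in Mdivi-1 and 93.2% in DMSO, which are neighbours on the chromosome and are known for promoter methylation in tumours. At the other end, ZNF433 had no methylated read at its 6 CpGs in either library. ZNF729, ZNF726 and ZNF333 were at 0 in Mdivi-1 and at 1.11%, 1.25% and 1.43% in DMSO, and ZNF562 had 0.732% in Mdivi-1 and 0.845% in DMSO over 20 CpGs. Apart from ZNF562 these lowest promoters rest on 5 or 6 CpGs each.

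The difference between the libraries was small across these promoters. Its median was 0.0871 points, with 117 promoters higher in Mdivi-1, 99 lower and 1 equal, and 80% of them lay between -1.29 and 1.64 points. Over all genes the median was 0.20 points, with 58.2% of promoters higher in Mdivi-1 and 41.8% lower, so the 53.9% of these genes lies near that background. Split by level, the median difference was -0.0564 points for the 127 promoters with a mean level under 10%, 0.607 points for 62 promoters of 10 to 50% and 0.628 points for 28 promoters of 50% or more. The same classes over all genes had medians of 0.0605, 0.290 and 0.786 points. Across the 217 genes the promoter levels of the 2 libraries had a Pearson correlation of 0.998, which describes 2 libraries of the same line and is not a test.

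No promoter of the set passed the rule of size upwards and 1 passed downwards, against 0.145% of all promoters upwards and 0.149% downwards. That 1 was ZNF274, a KRAB protein that binds zinc finger genes themselves and recruits SETDB1 to them. Its promoter, at hg19 position 58693617 to 58694406 on chromosome 19, had 24.6% methylation in Mdivi-1 and 35.4% in DMSO, a difference of -10.8 ± 5.41 points over 6 CpGs in an island shore. The 6 CpGs, in order of position, had 26.1%, 12.5%, 3.85%, 31.3%, 41.4% and 32.4% in Mdivi-1, against 31.3%, 4.55%, 14.3%, 46.7%, 52.9% and 62.5% in DMSO. The Mdivi-1 value was lower at 5 of the 6, and the ranges of the libraries overlapped. Coverage was 16 to 37 reads in Mdivi-1 and 15 to 24 reads in DMSO, and with all CpGs on the same molecules the error becomes 13.7 points. With a minimum of 20 reads too few CpGs were left for a value, so the call rests on thinly covered positions.

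The next largest loss was at ZNF575, at position 44036964 to 44037337, with 13.9% in Mdivi-1 and 22.1% in DMSO. The difference was -8.25 ± 1.71 points, or ± 6.48 with shared molecules, and 18 of its 21 CpGs were lower in Mdivi-1. The pooled reads of this promoter gave a difference of -5.01 points. Its median CpG had 8.0% in Mdivi-1 and 11.5% in DMSO, and the largest change at a single CpG was -39.0 points. In the RefSeq window at its start, described below, the difference was -2.25 points over 18 CpGs. The 4 other largest losses were smaller: -4.77 points at ZNF556, -3.95 at ZNF552, -3.17 at ZNF233 (-2.05 with pooled reads) and -3.02 at ZNF808, whose protein silences retroelements in early development. At ZNF552 the promoter had 5.89% in Mdivi-1 and 9.84% in DMSO, with 9 of 11 CpGs lower in Mdivi-1. The median CpG of ZNF556 had 3.92% in Mdivi-1 and 2.82% in DMSO, and its difference was -1.27 points with pooled reads and 0.963 points with a minimum of 20 reads.

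Among the gains, ZNF577 had the largest value. Its promoter, at position 52391196 to 52391870, had 60.6% methylation in Mdivi-1 and 54.7% in DMSO, a difference of 5.89 ± 1.78 points, or ± 9.10 with shared molecules. Of its 24 CpGs, 23 were higher in Mdivi-1 and 1 was lower, and single CpGs differed by at most 15.4 points. ZNF577 is among the genes reported to be methylated in breast tumours, and in the sequence above its 8 CpGs nearest the start all lie below 50%. ZNF90 and ZNF98, which belong to the primate-expanded group around ZNF91 near the centromere, followed with differences of 5.78 ± 2.69 points over 6 CpGs and 5.67 ± 2.66 points over 18 CpGs. ZNF90 had 97.2% in Mdivi-1 and 91.5% in DMSO. ZNF98 had 42.6% in Mdivi-1 and 36.9% in DMSO, with 15 of 18 listed positions higher in Mdivi-1, and a minimum of 20 reads gave 2.85 points. Minus-strand positions alone left 8 of the 18 and gave 6.64 points. Both strands of a CpG may be among the 18, so they are not all separate CpGs for certain. The level of ZNF98 drops along the promoter, the median CpG having 53.1% in Mdivi-1 and 47.0% in DMSO and the lowest CpG 2.44% in Mdivi-1 and 0 in DMSO. ZNF135 had 83.5% in Mdivi-1 and 79.5% in DMSO, a difference of 4.07 ± 1.32 points with 27 of 42 CpGs higher in Mdivi-1 and 10 lower. ZNF480 and ZNF835 complete the 6 largest gains, with 4.51 and 4.10 points, but the median CpG of each was at 0 in both libraries. With pooled reads their differences were 2.41 and 1.17 points, and with a minimum of 20 reads 0 and 0.0383 points.

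**Figure D2:**
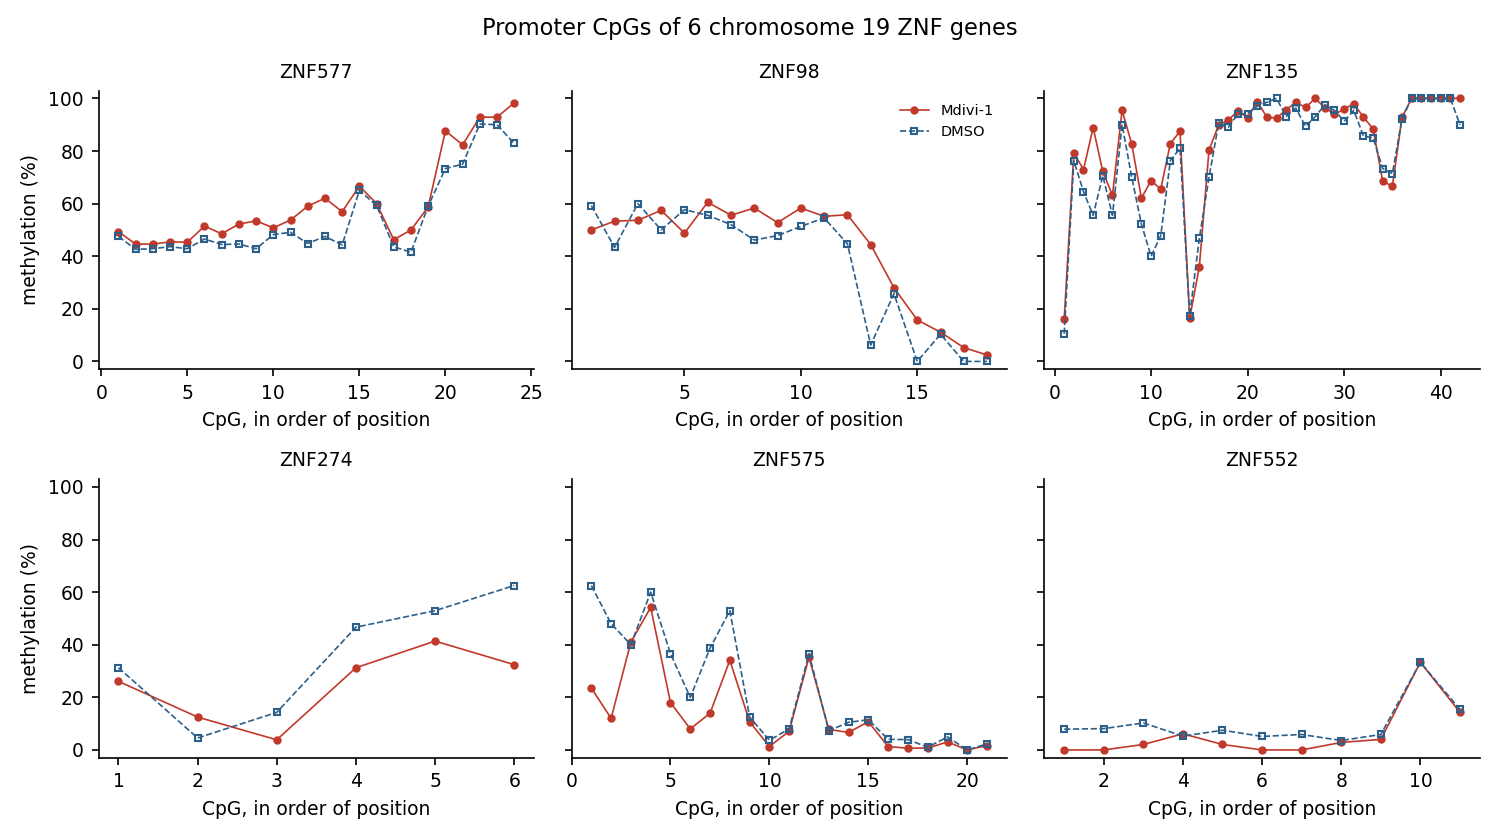
Methylation (%) of each promoter CpG in order of position in the Mdivi-1 library (filled circles) and the DMSO library (open squares) for 6 genes named for their difference, the upper row with higher and the lower row with lower mean levels in Mdivi-1. In ZNF577 the Mdivi-1 value is higher at 23 of 24 CpGs, in ZNF575 it is lower at 18 of 21, and in ZNF274 it is lower at 5 of 6.

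**Figure D3:**
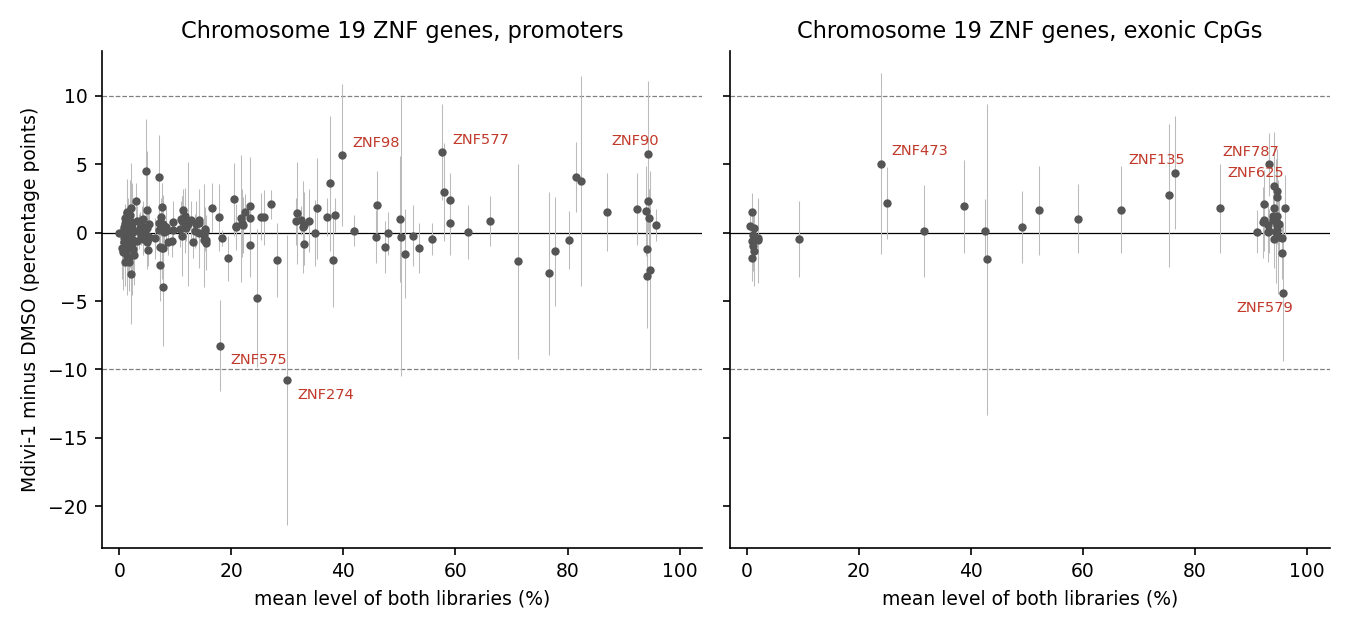
Difference in mean methylation, Mdivi-1 minus DMSO (percentage points), against the mean level of both libraries (%) for promoters (left) and exonic CpGs (right). Each point is a gene, bars are 95% intervals from read counting that treat CpGs as independent, and dashed lines mark 10 points. Only ZNF274 lies beyond a dashed line, and its interval is wide.

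A minority of these differences exceeded counting error. With reads at each CpG taken as independent, 24 of the 217 promoters, or 11.1%, differed by more than their 95% interval, against 12.0% over all genes. Both shares are above what a 95% interval leaves out by counting alone, so this error does not cover the whole spread between the libraries. The cause was not tested. With shared molecules none of the 217 differed by more than its interval, and none of all genes did either. That larger error singled out no gene at all, so it cannot tell these promoters from others. The median error of a promoter of the set was 0.790 points on the independent assumption and 4.68 points on the shared one.

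Most promoters of intermediate level had little methylation at the gene start. RefSeq promoter windows of 300 bases, of which 250 lie before the start, were available for 193 of the 217 genes. They were placed on the measured CpGs by the spacing of CpGs alone for 170 genes, and where a gene had several placed windows the one with most measured CpGs was taken. In these windows 153 genes had a mean level under 10%, 6 had 10 to 50% and 11 had 50% or more. Of 50 genes whose annotated promoter averaged 10 to 50%, 48 were under 10% in the window at the start. In that class the 100 bases before the start had 2.23% in Mdivi-1 and 1.95% in DMSO, while the bin of 100 bases that begins 800 bases upstream had 69.5% in Mdivi-1 and 64.0% in DMSO, over 54 positions of 17 genes. These bins pool different genes, so the contrast describes the class and not each gene.

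**Figure D4:**
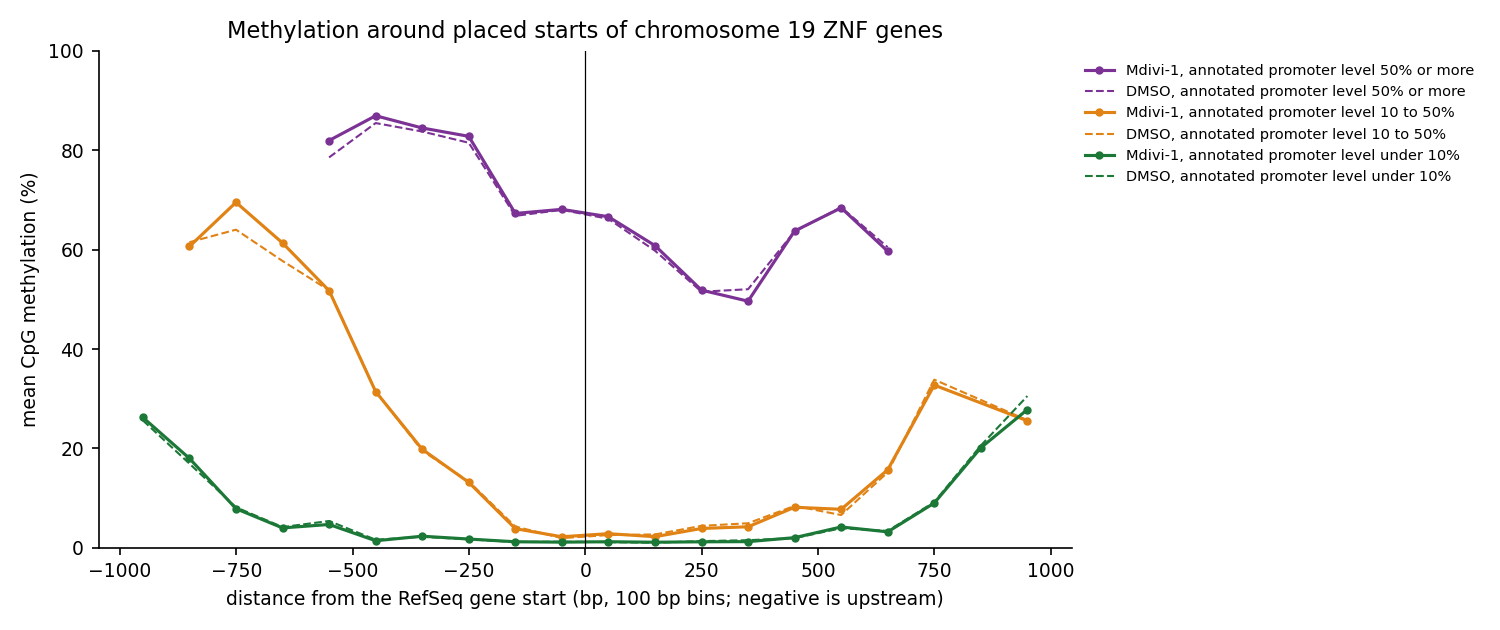
Mean CpG methylation (%) in bins of 100 bases against distance from the RefSeq gene start (bp, negative upstream) for 3 classes of annotated promoter level, in Mdivi-1 (solid) and DMSO (dashed). Bins with at least 20 CpG positions from at least 5 genes are drawn. Promoters of 10 to 50% are near 2% at the start and exceed 60% upstream, those under 10% stay near 1% around the start, and those of 50% or more have 68.1% in Mdivi-1 and 68.0% in DMSO just before it. The classes were made from the same values, so the profile is a description.

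The 11 genes at 50% or more in that window were ZNF135, ZNF154, ZNF229, ZNF296, ZNF418, ZNF432, ZNF534, ZNF544, ZNF577, ZNF671 and ZNF814. ZNF432 led them with 96.1% in Mdivi-1 and 96.6% in DMSO over 27 CpGs, and ZNF577 was at the limit with 51.4% in Mdivi-1 and 48.7% in DMSO. ZNF296, known as a gene of pluripotent cells, had 89.3% in Mdivi-1 and 88.2% in DMSO, and ZNF544 had 88.2% in Mdivi-1 and 89.2% in DMSO. Across the 170 windows the difference between libraries had a median of 0.0851 points and ranged from -2.78 at ZNF331 to 3.32 at ZNF534, with 94 windows higher in Mdivi-1 and 76 lower. Over all 202 placed windows, several per gene included, the largest difference was 6.98 points, over 5 CpGs of a second ZNF574 window, and no window reached 10 points. The number of CpGs in the window had medians of 21 in the class under 10% and 23 in the class of 50% or more, and its Spearman correlation with level over the 170 genes was -0.0384. Among the placed windows, methylated and unmethylated starts thus had similar numbers of CpGs. Placement needed at least 5 matching CpG distances, so starts with too few listed CpGs could not enter this comparison. Of the 28 annotated promoters with a mean level of 50% or more, 16 had a placed window, against 170 of all 217. Whether the unplaced starts differ in CpG number was not tested.

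Some genes carried both kinds of start. ZNF57 had 1.50% in Mdivi-1 and 1.29% in DMSO in its upstream window and 93.0% in Mdivi-1 and 91.6% in DMSO in its downstream one. ZNF574 and ZNF841 likewise had a window under 2% and another above 58% in both libraries. ZNF331, an imprinted gene with several start sites, spanned the range: its upstream window had 2.11% in Mdivi-1 and 1.87% in DMSO, the window that holds the sequence shown above had 37.7% in Mdivi-1 and 40.5% in DMSO, and the most downstream window had 87.4% in Mdivi-1 and 85.1% in DMSO. Its 237 promoter positions together had 47.9% in Mdivi-1 and 48.0% in DMSO.

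Short motifs were counted in the same RefSeq windows on both strands. The letters CCGGAAG, which ETS-family factors are known to bind, occurred in 37.3% of the 244 windows of these genes and in 10.3% of all 35116 windows of the table. The GC box GGGCGG, bound by SP1-type factors, occurred in 66.0% of the windows of these genes and in 45.0% of all windows. The cyclic AMP response element TGACGTCA occurred in 4.10% of the windows of these genes and in 1.85% of all windows. The motifs were counted separately and may overlap, windows of neighbouring starts share bases, and the 2 sets of windows were not matched for base composition. Among genes with a placed window, CCGGAAG stood in 5 of the 11 methylated ones and in 59 of the 153 under 10%. GGGCGG stood in 6 of the 11 and in 109 of the 153. A match is a description of letters and not of a bound site.

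Exonic CpGs were mostly fully methylated. The median level of the 51 exon sets was 92.4% in Mdivi-1 and 91.0% in DMSO, and 33 of them, or 64.7%, lay at 50% or more in both libraries, against 53.6% of all genes. The median over all genes was 56.1% in Mdivi-1 and 55.9% in DMSO. The numbered zinc finger genes of other chromosomes had medians of 92.0% in Mdivi-1 and 90.3% in DMSO over 120 genes, close to those of chromosome 19, while the other 853 genes of chromosome 19 had 63.6% in Mdivi-1 and 63.0% in DMSO. The longest measured sets were those of ZNF865, with 94.4% in both libraries over 183 CpGs, and ZNF835, with 94.7% in Mdivi-1 and 94.5% in DMSO over 164 CpGs. The highest was that of ZNF524, a telomere-binding zinc finger protein, with 96.9% in Mdivi-1 and 95.1% in DMSO, followed by ZNF579, ZNF536, ZNF653 and ZNF296. The 11 sets under 10% included ZNF490, ZNF829, ZNF559, ZNF180 and ZNF211 as the lowest, all at 1.88% or less in both libraries. Some of these exonic CpGs are promoter CpGs, as at ZNF559, where positions 9434859 to 9434898 fall inside the annotated promoter span of 9434524 to 9434898. With exonic CpGs inside promoters left out, 6 of 45 sets still lay under 10%, ZNF180 and ZNF211 among them. All 6 CpGs of ZNF180, at 45004254 to 45004289, and all 11 of ZNF211, at 58144721 to 58144804, lay in CpG islands. Which exon these sets belong to was not determined, so they need not be finger exons. ZNF792, another of the 11, had 0 kept promoter CpGs.

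Exonic differences were also small. The median was 0.581 points, with 37 sets higher in Mdivi-1 and 14 lower, and over all genes it was 0.425 points with 61.6% higher in Mdivi-1 and 38.2% lower. No exon set of these genes passed the rule of size, against 0.291% of all genes upwards and 0.275% downwards. The largest gain was at ZNF473, a component of the U7 particle that processes histone transcripts, with 26.5% in Mdivi-1 and 21.4% in DMSO. The difference was 5.03 ± 3.37 points over 5 CpGs, of which 3 were higher and 2 lower in Mdivi-1. The CpG at position 50550265 alone had 27.3% in Mdivi-1 and 6.90% in DMSO, a gain of 20.4 points. ZNF787 had 95.7% in Mdivi-1 and 90.7% in DMSO, a difference of 4.99 ± 1.19 points with 19 of 33 CpGs higher in Mdivi-1 and 7 lower. Fewer than 5 of these 33 were listed on the minus strand, so minus-strand positions alone gave no value for ZNF787. ZNF135 was higher in Mdivi-1 in its exons as in its promoter, with 78.5% in Mdivi-1 and 74.1% in DMSO and 10 of 12 CpGs higher in Mdivi-1. ZNF625, ZNF671 and ZNF274 followed with 3.43, 3.04 and 2.72 points, so that ZNF274 had a higher exonic and a lower promoter level in Mdivi-1. Pooled reads gave 4.83 points at ZNF274, and a minimum of 20 reads gave 5.70 points at ZNF671. The largest losses were -4.44 points at ZNF579, whose 11 CpGs were covered by 11.4 reads on average in Mdivi-1 and 10.8 in DMSO, and -1.96 points at ZNF580 (-3.19 with pooled reads and -1.18 with the deposited fractions). ZNF829, ZNF653, ZNF460 and ZNF211 lay between -1.88 and -1.01 points.

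Methylated exons occurred with promoters of any level. Of the 50 genes with both, 33 had exonic levels above 50% and 10 of these had a promoter under 10%. Promoters under 10% with exons above 90% were seen in 9 genes. ZNF625 was such a gene, with 1.34% in Mdivi-1 and 1.65% in DMSO at the promoter and 95.8% in Mdivi-1 and 92.3% in DMSO in its exons. In ZNF865 both compartments were methylated. With exonic CpGs inside promoters left out, 44 genes had both values, and their Spearman correlation was 0.106, a description over genes that share the 2 libraries.

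**Figure D5:**
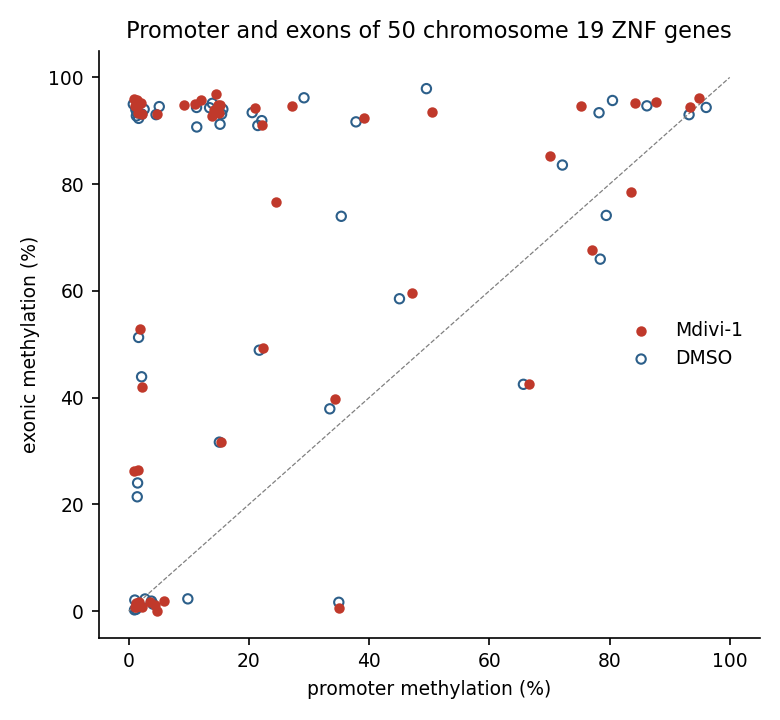
Exonic against promoter methylation (%) of 50 genes in the Mdivi-1 library (filled) and the DMSO library (open), with the line of equal levels dashed. Most genes lie above the line, with exons above 90% over the whole range of promoter levels, and a group of 10 genes has exonic levels under 10%.

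Along the chromosome the genes fell into 16 groups, some of 1 gene, when gaps of more than 1 Mb were taken as breaks. The largest, from 56.0 to 59.0 Mb on hg19, held 57 measured promoters with a median of 13.4% in Mdivi-1 and 12.4% in DMSO, 11 of them at 50% or more, among them ZNF418, ZNF154, ZNF671 and ZNF814. In it 37 promoters were higher in Mdivi-1 and 20 lower, with a median difference of 0.382 points. The cluster from 52.1 to 54.1 Mb held 34 measured promoters, with 8.62% in Mdivi-1 and 8.99% in DMSO, and includes ZNF432, ZNF577 and ZNF331. The clusters from 11.6 to 12.7 Mb and from 36.7 to 38.3 Mb held 25 promoters each, of which 20 lay under 10% and none at 50% or more. The cluster from 19.8 to 24.3 Mb, home of ZNF90 and ZNF98, had 21 promoters measured among 30 members. The promoters of the 19.8 to 24.3 Mb cluster had medians of 2.07% in Mdivi-1 and 2.54% in DMSO. Near-identical copies are frequent among these genes, and the sources used here do not state how reads with several matches were treated.

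Genes listed for methylation in tumours or for imprinting showed the full range of levels. All 14 of the list had a measured promoter, 4 at 50% or more and 6 under 10% in both libraries, with 7 higher and 7 lower in Mdivi-1 and a median difference of 0.0532 points. ZNF582, a methylation marker of cervical cancer, had 55.5% in Mdivi-1 and 56.0% in DMSO over 52 CpGs. ZNF177 had 39.5% in Mdivi-1 and 35.8% in DMSO, and ZNF132 had 26.4% in Mdivi-1 and 25.3% in DMSO. ZNF667 and ZNF781 were nearly unmethylated, with 1.39% and 1.77% in Mdivi-1 and 1.74% and 2.60% in DMSO.

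Of 8 genes listed for repression of retroelements, 6 had a measured promoter, and ZNF91 and ZNF675 had too few CpGs. Of these 4 were higher and 2 lower in Mdivi-1, none passed the rule of size, and the median difference was 0.159 points. ZNF417 and ZNF587, a related pair that represses endogenous retroviruses in human neurons, had 23.1% and 26.0% in Mdivi-1 and 21.6% and 24.8% in DMSO. ZNF93, which represses LINE-1 elements, had 1.20% in Mdivi-1 and 0.905% in DMSO. Among 10 genes with other described roles, 6 promoters were higher and 4 lower in Mdivi-1, and 1, ZNF274, passed the rule of size. ZNF536, a regulator of neuronal differentiation, had 84.3% in Mdivi-1 and 80.5% in DMSO over 6 promoter CpGs, a difference of 3.78 ± 3.93 points.

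The proteins that KRAB zinc finger proteins recruit are encoded elsewhere in the genome and served as a pathway list. Of its 19 genes 17 had a measured promoter, 12 higher and 5 lower in Mdivi-1, with a median difference of 0.517 points and none past the rule of size. The largest was DNMT3B, a DNA methyltransferase, with 78.4% in Mdivi-1 and 73.2% in DMSO, a difference of 5.15 ± 2.41 points with 13 of 21 CpGs higher in Mdivi-1 and 8 lower. These CpGs are spread from position 31349227 to 31367317 of chromosome 20, so the mean need not describe a single start. SETDB1 had 5.08% in Mdivi-1 and 5.58% in DMSO. TRIM28 had exonic CpGs only, with 12.9% in Mdivi-1 and 11.3% in DMSO.

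Single CpGs were compared by 2-sided Fisher exact tests on methylated and unmethylated reads with Benjamini-Hochberg adjustment over the whole table, which compares these 2 libraries and not the conditions. A CpG was called at an adjusted p under 0.05 if the libraries also lay 20 points or more apart. None of the 15259 CpGs of these genes was called, while 0.000634% of all CpGs did, namely 16 of 2523690. At an unadjusted p under 0.05, 169 of them passed, or 1.11%, against 2.02% of all CpGs. A difference of 20 points or more, whatever its p, was seen at 1.32% of them and at 2.74% of all. The smallest p, 0.000555 before and 1 after adjustment, was at position 58986867 in the ZNF446 promoter, with 25 of 95 reads methylated in Mdivi-1 and 5 of 77 in DMSO. The whole ZNF446 promoter had 4.65% in Mdivi-1 and 4.54% in DMSO over 113 CpGs, of which 38 were higher and 36 lower in Mdivi-1.

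By genomic class, the CpGs of these genes that lie in CpG islands had 25.7% in Mdivi-1 and 25.6% in DMSO, and those in island shores 34.8% in Mdivi-1 and 34.5% in DMSO. Island CpGs inside promoters had 9.74% in Mdivi-1 and 9.71% in DMSO, against 35.0% in Mdivi-1 and 34.9% in DMSO for island CpGs outside promoters. CpGs in 3′ untranslated regions had 84.2% in Mdivi-1 and 83.3% in DMSO, and those in introns 29.4% in Mdivi-1 and 29.3% in DMSO. Several neighbouring genes shared promoter CpGs and are not independent: 187 positions served a pair of members, most of them ZNF569 with ZNF570 (68 positions) and ZNF345 with ZNF790 (44 positions).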

How the data were processed

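The authors deposited a table of methylated fractions, coverages and differences of fractions at 2773807 positions of 2 libraries, 1 of Mdivi-1 and 1 of DMSO. The submitters' processing notes name BSMAP and hg19, and other steps are not given in the sources used here. The deposited coverages were taken as estimated counts, because 10751 were not whole. The DMSO fractions deposited by the authors matched whole reads at the deposited coverage for 33.3% of positions within a tolerance of 1e-06. Multiplying coverage by 1.23, the ratio of median coverages of 37 and 30 reads, let whole methylated reads be recovered for all but 47 positions of whole coverage. This rescaling was read from the values. In all, 10798 positions (0.389%) were left out.

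CpGs with 10 or more reads in both libraries were kept, and a gene's level is the mean over 5 or more CpGs. Annotated strand and gene assignments are those of the deposited table. Where a CpG was listed on both strands (373 CpGs of these genes) both rows were kept. Promoter windows of RefSeq on GRCh38.p14 were placed by matching at least 5 CpG distances with no mismatch and a single best position, without converting coordinates. Protein sequences, and so grouping by KRAB domain or finger number, were not used here. Fisher tests ran in Numba 0.67.0, means and tables in pandas 2.3.3 with NumPy 2.4.6, correlations in SciPy 1.17.1 and plots in Matplotlib 3.10.9, under Python 3.11.15. The read recovery, the Fisher tests and the rule of size were run on simulated data to check the code. The simulated fractions were made by the same rescaling that the recovery reverses. They therefore cannot show whether the deposited fractions were made in that manner. Simulated reads for the rule of size held counting error only.

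Genes were named if they passed the rule of size, were among the 6 largest gains or losses or the 5 highest or lowest levels of promoters or exons, or stood on the gene lists. ZNF256, ZNF57, ZNF574, ZNF841, ZNF446, the genes with methylated starts and those with shared promoters were named after their values were seen. The members and lists were chosen with earlier results of these data known. Alternatives tried were other coverage and CpG minimums, pooled reads, deposited fractions, CpGs of 1 gene only, removal of CpGs above the 99th percentile of coverage, other sizes of difference, other level thresholds, exons outside promoters and centring on all genes.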

Additional observations from a re-analysis of the deposited data

How the results depend on the processing

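No paired analysis was possible because each condition has 1 library, and for the same reason no replicate could be left out. The median promoter difference stayed between 0.0332 and 0.229 points under other coverage and CpG minimums, pooled reads, the deposited fractions and other CpG sets, and was -0.113 points after subtracting the median of all genes. The median exonic difference stayed between 0.157 points, after that subtraction, and 0.852 points, and no exon set passed the rule of size under any alternative run. The number of promoters past the rule of size was 0 with a minimum of 20 reads, 0 with at least 10 CpGs per gene, 5 at a difference of 5 points and 0 at 15 points. By size alone, 2.30% of these promoters and 4.30% of all promoters differed by more than 5 points. The 27 promoters at 50% or more became 16 at a threshold of 70% and 47 at 30%. Single CpGs called became 57 when the p was not adjusted and the libraries lay 20 points or more apart. The share of all CpGs that passed this combined rule was not computed, so the 57 has no background to be read against. Each of its criteria alone was met by a smaller share of these CpGs than of all CpGs, as given above. That does not give the share for both together. Use of minus-strand positions alone, chosen after seeing the data, changed no count beyond 1.5 times but left no value for the ZNF787 exons. Among 145 alternative values of the named genes, 142 moved by less than their 95% counting interval with independent CpGs, and the other 3 were ZNF480, ZNF556 and ZNF835 with a minimum of 20 reads. The alternatives reuse the same reads and often the same CpGs, so small moves were likely from the outset and are no independent support. In 4 of the 145 the sign turned or the difference became 0. These were ZNF480 and ZNF556 with a minimum of 20 reads, and ZNF562 with pooled reads and with deposited fractions. A minimum of 20 reads left 29 values, against 39 with pooled reads. The ZNF274 and ZNF865 promoters and the ZNF579 exons had none there. The cause of these shifts was not tested.

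Depth limits every promoter value: at mean coverages of 49.7 reads in Mdivi-1 and 40.4 in DMSO, the median counting error of a promoter was 0.790 points with independent CpGs and 4.68 points with shared molecules. With 1 library per condition, an effect of treatment and a difference between 2 cultures or libraries cannot be told apart.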
